A study of Caenorhabditis elegans with 2 samples.

Results

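The genes examined here are the 6 vitellogenin genes of Caenorhabditis elegans, vit-1 to vit-6, taken by their annotated symbols from 19973 nuclear protein-coding genes. The rule used their symbols and no measured value, but the choice of this family was made with earlier results of these data known. The data are peak lists from chromatin immunoprecipitation followed by sequencing of DAF-16, the FOXO transcription factor acted on by the insulin-like receptor DAF-2. The animals were L4 hermaphrodites of strain ZM8745, 54 hours after synchronization as starved L1 larvae. Their genotype was daf-16(mu86), daf-2(e1370) and hpSi15, in which the ges-1 promoter drives GFP::daf-16a. The ges-1 promoter is active in the intestine, so the tagged protein was supplied to one tissue while whole animals were processed, and the number of contributing cells and the occupancy per cell cannot be told apart. Other label text places the GFP tag at the other end of the protein. Both libraries are biological replicates of this 1 group, so there is no condition to compare, and no input or untagged library was analysed here.

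Vitellogenins are the yolk proteins. They are made in large amounts in the intestine of the adult hermaphrodite, secreted into the body cavity and taken up by growing oocytes through the receptor RME-2. Transcription of these genes is known to depend on the intestinal GATA factor ELT-2 and on short promoter sequences named vitellogenin promoter elements, and to be reduced in daf-2 mutants in a daf-16-dependent manner. The X chromosome carries vit-1 to vit-5, and chromosome IV carries vit-6.

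The deposited lists on the genome build ce11 numbered 4: one for each replicate, one for both replicates pooled, and the optimal set, which passed a threshold on the irreproducible discovery rate, a measure of how alike entries rank in replicates. The pooled list held 30000 entries, the replicate 1 list 28175 and the replicate 2 list 22676. These 3 lists hold peaks together with background, so that an entry in them is a candidate and not a called peak. The optimal set held 1489 entries, the same as the top 1489 of the pooled list. An entry was given to a gene when its summit lay between 3000 bp upstream of the gene and the gene end, and was ranked by the signal the authors give it, with rank 1 the highest. The scale of that signal is not stated and the lists hold no read counts, so depth is unknown and values are read within a list only.

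The 200 bp upstream of each annotated start are shown because in every member the start entry described below covers part of this stretch. They are the reference sequence on the strand of the gene, 5′ to 3′. Capitals mark the GATA core TGATAA and the vitellogenin promoter element VPE1, which reads TGTCAAT, on either strand, and in vit-3 also TATTTAC, one form of the DAF-16 binding element. The regions are X:7727689-7727888 (plus strand) for vit-1, X:5100842-5101041 (plus) for vit-2, X:3572550-3572749 (minus) for vit-3, X:3563966-3564165 (minus) for vit-4, X:3403271-3403470 (plus) for vit-5 and IV:8260957-8261156 (plus) for vit-6.
vit-1: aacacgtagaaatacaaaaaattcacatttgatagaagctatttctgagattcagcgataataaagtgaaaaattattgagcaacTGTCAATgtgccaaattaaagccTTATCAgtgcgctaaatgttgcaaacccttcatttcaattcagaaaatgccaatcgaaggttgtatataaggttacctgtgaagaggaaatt
vit-2: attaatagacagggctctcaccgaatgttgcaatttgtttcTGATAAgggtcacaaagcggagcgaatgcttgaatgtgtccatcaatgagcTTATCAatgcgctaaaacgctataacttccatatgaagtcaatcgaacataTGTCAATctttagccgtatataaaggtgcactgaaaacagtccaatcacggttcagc
vit-3: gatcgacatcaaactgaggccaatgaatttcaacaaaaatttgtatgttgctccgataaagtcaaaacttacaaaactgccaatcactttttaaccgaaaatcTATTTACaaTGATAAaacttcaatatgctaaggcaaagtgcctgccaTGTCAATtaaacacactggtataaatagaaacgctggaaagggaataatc
vit-4: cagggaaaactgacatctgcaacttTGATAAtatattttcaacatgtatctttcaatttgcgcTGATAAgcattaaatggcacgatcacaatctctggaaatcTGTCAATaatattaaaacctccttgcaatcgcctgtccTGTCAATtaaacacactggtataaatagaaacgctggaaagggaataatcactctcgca
vit-5: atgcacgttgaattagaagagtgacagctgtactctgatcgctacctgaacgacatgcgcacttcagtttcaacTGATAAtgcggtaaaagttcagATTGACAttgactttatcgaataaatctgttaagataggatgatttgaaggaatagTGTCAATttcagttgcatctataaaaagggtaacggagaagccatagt
vit-6: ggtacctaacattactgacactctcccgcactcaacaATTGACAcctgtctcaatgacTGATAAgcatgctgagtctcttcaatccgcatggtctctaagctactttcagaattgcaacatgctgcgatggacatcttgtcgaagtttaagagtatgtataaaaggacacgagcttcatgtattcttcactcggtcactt

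All 6 vitellogenin genes had an entry within 250 bp of a transcript start in the pooled list, and all 6 had one in each replicate list. Over all protein-coding genes the share with such an entry was 24.9% in the pooled list, 23.8% in replicate 1 and 19.9% in replicate 2. An entry at that distance in both replicates was found for 6 of 6 vitellogenin genes and for 11.4% of all protein-coding genes. These entries are candidates, and some were weak. In replicate 1 the authors' −log10 q-value of the highest start entry was 0.05183 for vit-1, 0.1474 for vit-3 and 0.3809 for vit-6. It was 0.6688 for vit-4, 1.204 for vit-5 and 3.336 for vit-2. A presence in both lists is therefore not a reproducible peak at every start. The members' highest start entries had a median rank of 2477.5 in the pooled list, against 10858 over the 4969 genes with a start entry. In replicate 1 the medians were 5406.5 for the members and 10905 for all such genes, and in replicate 2 they were 1273.5 and 8945.5. These are descriptions of 1 list each, and no test was made over the members.

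The optimal set reached fewer of them. With the window from 3000 bp upstream to the gene end, 3 of the 6 genes had an optimal entry (vit-1, vit-2 and vit-6), against 8.24% of all protein-coding genes. That share was not matched for gene length, on which the size of this window depends. Within 250 bp of a transcript start, 2 of the 6 had one (vit-2 and vit-6), against 1.9% of all protein-coding genes. The X chromosome, home to 5 of the members, held 396 of the 1489 optimal entries and 4782 of the 30000 pooled ones.

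**Figure D1:**
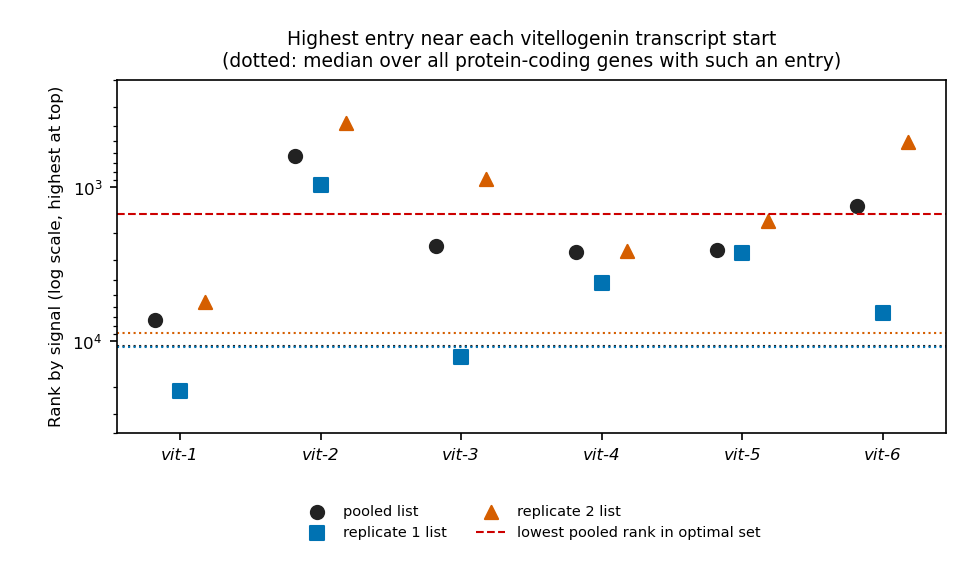
Rank by signal (log scale, highest signal at the top) of the highest entry within 250 bp of a transcript start of each vitellogenin gene, in the pooled, replicate 1 and replicate 2 lists. The dashed line is the lowest pooled rank in the optimal set (1489) and the dotted lines are the medians over all protein-coding genes with such an entry. Every member ranked higher in replicate 2 than in replicate 1, and vit-2 was the highest in all 3 lists.

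The entry at vit-2 was the highest near a vitellogenin start in each list. It lay at X:5100746-5101165, between genes, with its summit 86 bp upstream of the start. Its pooled signal was 130.7 at rank 629, and 0.571% of all protein-coding genes had a start entry ranked as high or higher. The replicates placed it at rank 965 with a signal of 61.02 (replicate 1, summit at −113) and rank 385 with a signal of 75.16 (replicate 2, summit at −90). The 101 bp centred on the pooled summit, X:5100906-5101006 on the plus strand, are shown because they hold a GATA core and a VPE1 (capitals) on either side of the summit.
vit-2 summit: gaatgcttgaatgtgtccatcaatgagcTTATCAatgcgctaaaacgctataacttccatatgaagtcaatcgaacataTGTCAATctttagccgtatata

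The optimal entry of vit-6, the only member off the X chromosome, lay at IV:8261062-8261481 with a signal of 90.12 at rank 1321. Its summit was 115 bp downstream of the first annotated start and 99 bp downstream of the second, in an intron. In replicate 1 the start entry had a signal of 28.1 at rank 6603 with its summit at +120, and in replicate 2 a signal of 67.01 at rank 509 with its summit at +34, in a coding exon. The vit-6 start thus stood far higher in one replicate than in the other, and with replicate 1 alone it would fall outside the top 1489. The 101 bp around the pooled summit, IV:8261222-8261322 on the plus strand, are shown because they hold no capitals, that is, none of the elements searched.
vit-6 summit: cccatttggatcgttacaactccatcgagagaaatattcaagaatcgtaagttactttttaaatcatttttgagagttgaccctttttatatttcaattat

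The optimal entry assigned to vit-1 was not at its start. It lay at X:7725538-7725957 with a signal of 127.6 at rank 654, and its summit was 2141 bp upstream of vit-1 but 231 bp upstream of spp-14, a saposin-like protein gene that lies between the entry and vit-1 on the same strand. The replicates placed it at rank 1030 with a signal of 59.62 and at rank 494 with a signal of 67.88, with both summits in an exon of the non-coding RNA gene K09F5.9. A second pooled entry overlapped it, at rank 1787 with a signal of 76.28 and a summit 28 bp upstream of spp-14. The peak lists cannot say to which of these genes the entry belongs. Its summit window, X:7725698-7725798 on the plus strand, is shown because it holds a GATA core (capitals) outside the vitellogenin promoters.
vit-1 distal summit: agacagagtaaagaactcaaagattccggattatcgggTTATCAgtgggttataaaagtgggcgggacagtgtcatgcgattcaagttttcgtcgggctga

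At the vit-1 start itself the entry was the weakest of the family. The pooled signal was 42.23 at rank 7294, with the summit 22 bp downstream in the first coding exon. Replicate 1 gave 17.16 at rank 21245 and replicate 2 gave 24.28 at rank 5573. As a percent of the list, the vit-1 start stood at 24.3% of the pooled list, 75.4% of replicate 1 and 24.6% of replicate 2, whereas vit-2, whose coding sequence is closest to it, stood at 2.1%, 3.43% and 1.7%.

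The starts of vit-3, vit-4 and vit-5 had pooled entries below the threshold and close to each other. For vit-3 the entry at X:3572440-3572859 had a pooled signal of 66.41 at rank 2402, with its summit 101 bp upstream. The replicates differed widely for it, with 21.87 at rank 12722 in replicate 1 and 52.65 at rank 885 in replicate 2. The optimal set ended at a signal of 84.33, above the pooled values of all 3 genes.

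The vit-4 entry at X:3563885-3564304 had a pooled signal of 63.38 at rank 2652 and a summit 130 bp upstream. Replicate 1 gave it 33 at rank 4210 and replicate 2 gave 32.36 at rank 2613, so that by the ratio of their ranks vit-4 and vit-5 were the members with the least difference between replicates. The vit-5 entry at X:3403227-3403646 had a pooled signal of 64.51 at rank 2553 and a summit 34 bp upstream. Replicate 1 gave it 39.08 at rank 2678 with the summit at +71, and replicate 2 gave 39.31 at rank 1662 with the summit at −102. The pooled ranks of these 3 genes lay within 2402 to 2652, a range smaller than the gap between the replicate ranks of any of them.

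The order of the pooled start entries was vit-2, vit-6, vit-3, vit-5, vit-4 and vit-1. Only vit-2 first and vit-1 last kept their place in both replicate lists. Replicate 1 put vit-5 and vit-4 ahead of vit-6 and vit-3, and replicate 2 put vit-6 and vit-3 ahead of vit-5 and vit-4. All 6 start entries ranked higher in replicate 2 than in replicate 1. The replicate 2 list is shorter, but as a percent of each list the members were also all higher there, for example 3.9% in replicate 2 and 45.2% in replicate 1 for vit-3.

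The coding sequences of these genes are near copies, so reads can be shared between them. Coding identity was 99% between vit-3 and vit-4, 97.7% between vit-3 and vit-5, 97.8% between vit-4 and vit-5 and 93.9% between vit-1 and vit-2. Between vit-1 or vit-2 and the vit-3 to vit-5 group it was 69.2% to 70.1%, and vit-6 was at 57.7% to 58.7% with the others. Coding lengths were 4848 bp for vit-1, 4839 bp for vit-2, 4809 bp for each of vit-3, vit-4 and vit-5, and 4953 bp for vit-6. The 250 bp upstream of the starts were far less alike, from 49.8% to 63.2%, the highest being vit-3 with vit-4.

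**Figure D2:**
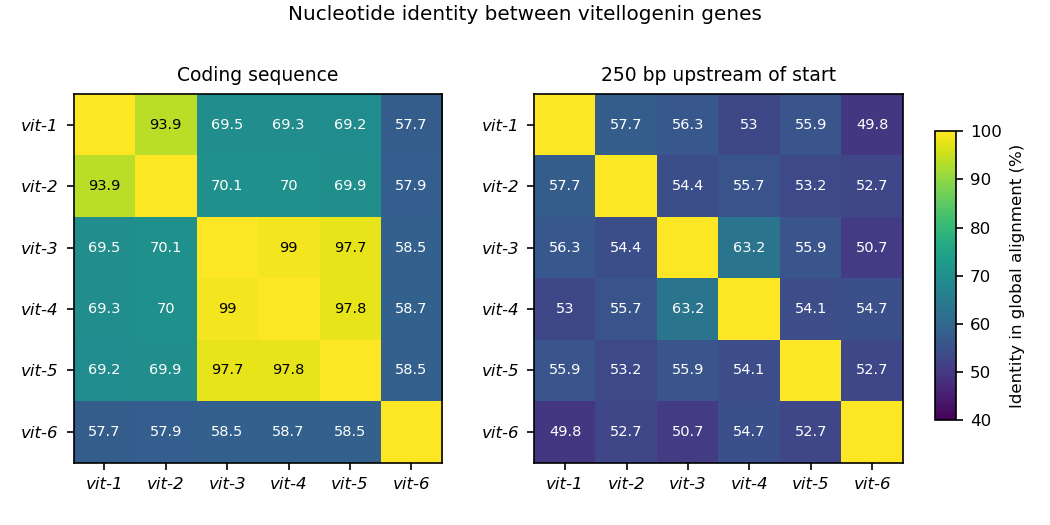
Percent nucleotide identity in global alignments between the 6 vitellogenin genes, for coding sequence (left) and for 250 bp upstream of the start (right), on 1 colour scale from 40 to 100. The block of vit-3, vit-4 and vit-5 at 97.7% to 99% and the pair vit-1 and vit-2 at 93.9% are seen in coding sequence, and neither stands at such values upstream.

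How far a start entry could draw reads from a copy was measured as the share of its 50-base words that occur once in the genome. The share was 100% for the start entries of vit-1, vit-2 and vit-6, 98.1% for vit-5 and 79% for each of vit-3 and vit-4. Over whole genes it was 87.2% for vit-1, 86.9% for vit-2, 25.9% for vit-3, 21.4% for vit-4, 50.9% for vit-5 and 100% for vit-6. The read length is not given in the sources used here, and with 36-base words the start entries of vit-3 and vit-4 came to 76.1%. How the authors placed reads that match more than once is also not given there. Which copy the reads of vit-3 and vit-4 came from is therefore uncertain wherever words are shared. In the 3000 bp upstream, where both pooled start summits lie, 2950 of 2951 50-base words occurred once for vit-3 and 2941 of 2951 for vit-4. Words that run past the start into the gene are not in this count. Upstream of vit-6 it was lowest, at 2347 of 2951, and it was 2951 of 2951 for vit-1, vit-2 and vit-5. The longest run shared in the 200 bp upstream of vit-3 and vit-4 is 50 bp. It begins at their VPE1, 50 bp upstream of vit-3 and 59 bp upstream of vit-4. It reaches the vit-3 start, where the compared stretch ends, so its full length was not measured. It is seen at the right of the sequences above. Between the other pairs the longest run was 7 to 11 bp.

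The gene bodies differed in how many entries they held. Summits inside the gene numbered 9 for vit-6 in the pooled list, 11 in replicate 1 and 8 in replicate 2. Over the 2274 protein-coding genes of 4000 to 6500 bp the means were 1.584, 1.449 and 1.157, and 0.22%, 0.044% and 0.22% of those genes had at least as many. The gene body of vit-2 held 4, 5 and 3 summits and that of vit-1 held 3, 3 and 2. The body of vit-5 held 2, 3 and 2, as many as vit-1 in both replicate lists, that of vit-3 held 0, 1 and 0, and that of vit-4 held 0 in all 3 lists. The order of the counts in the pooled list was that of the share of single-copy 50-base words in the gene, apart from vit-1 and vit-2 (87.2% and 86.9%) and from the tie of vit-3 and vit-4. Its part in these counts was not tested.

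Within vit-6 the second pooled entry lay 2247 bp downstream of the first start, in a coding exon, with a signal of 65.77 at rank 2463. Replicate 2 placed an entry at +2274 at rank 1008 with a signal of 49.73, whereas the highest replicate 1 entry of the gene lay elsewhere, at +3886, at rank 2822 with a signal of 38.22. Replicate 1 therefore had its highest vit-6 signal inside the gene and replicate 2 at the start.

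**Figure D3:**
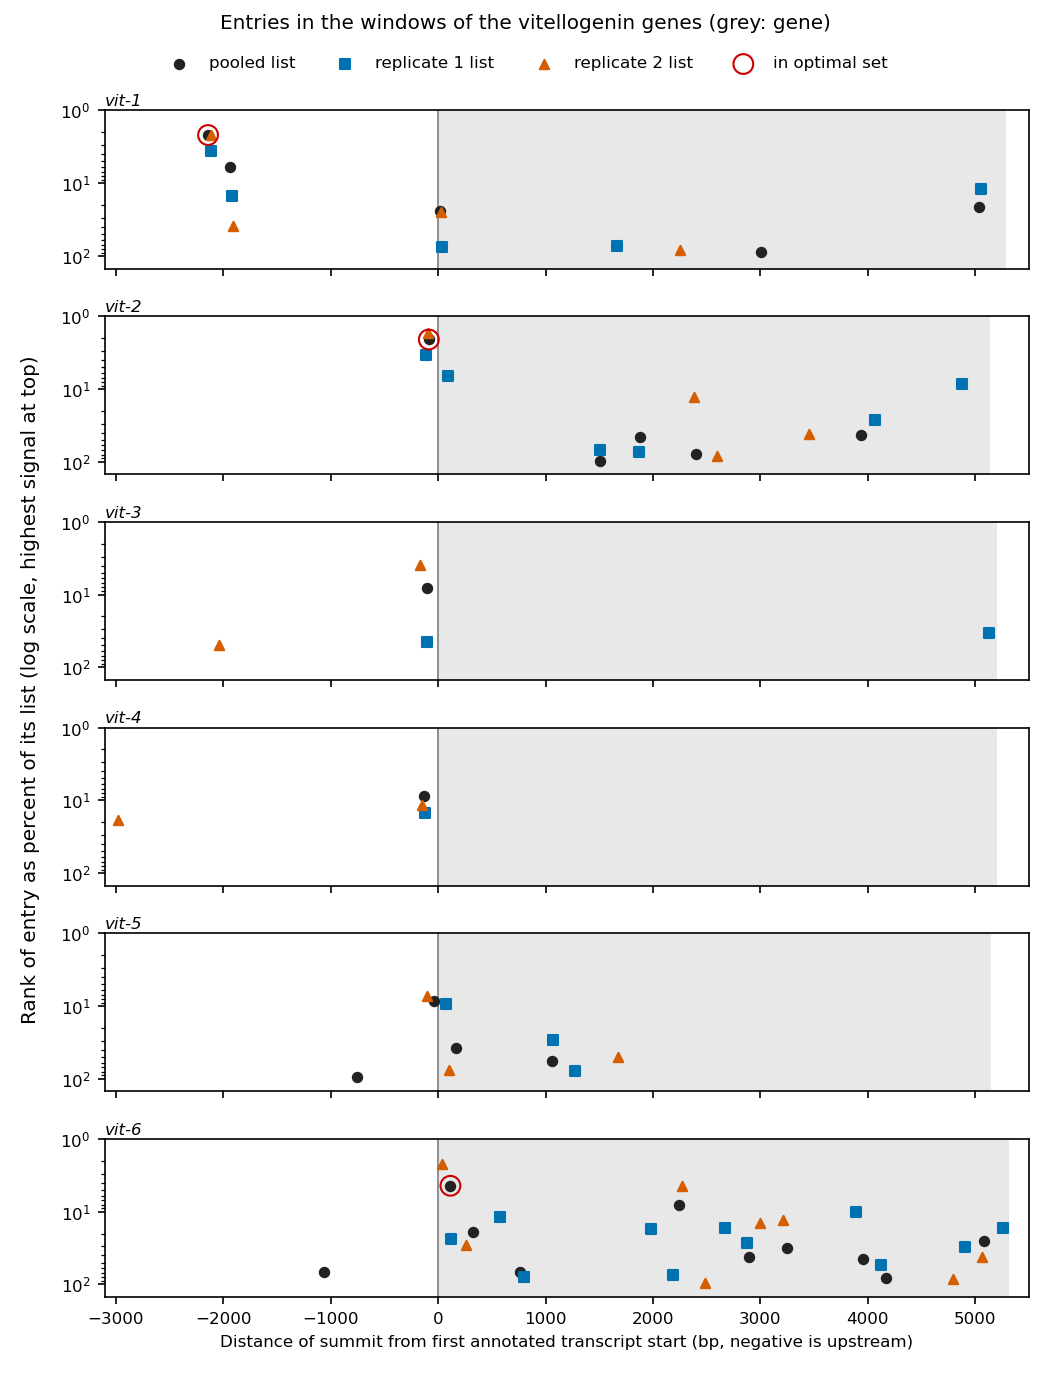
All entries in the windows of the 6 vitellogenin genes, by distance of the summit from the first annotated start (bp) and by rank as a percent of the list (log scale, highest signal at the top), for the pooled list (circles), replicate 1 (squares) and replicate 2 (triangles). Red rings mark optimal entries, and grey marks the gene. Entries of all 3 lists meet near every start, the vit-1 ring lies 2141 bp upstream, and vit-6 carries 10, 11 and 8 entries in its window against 1, 1 and 2 for vit-4.

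Entries also lay at the other end of the genes, a pattern picked out after the values were seen. Every member had a pooled summit within 250 bp of the gene end, as did 24.3% of all protein-coding genes, and a summit near both the start and the end was found for 6 of 6 members and for 9.19% of all protein-coding genes. The highest was at vit-2, at X:5106012-5106431, 53 bp past the gene end and so just outside the window, with a pooled signal of 111.8 at rank 862 and ranks of 1280 and 722 in the replicates. It was the only optimal entry within 250 bp of a member's end, against 1.34% of all protein-coding genes, and its summit lay in the 3' untranslated region of C42D8.9, whose end overlaps that of vit-2 on the other strand.

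At the other members the end entries were lower and less even. The vit-6 one lay 249 bp past the end with a pooled signal of 72.27 at rank 1991, that of vit-5 lay 138 bp past it with 48.2 at rank 5097, and that of vit-3 lay 173 bp past it with 47.15 at rank 5419. The vit-1 one lay 240 bp inside the gene with 44.26 at rank 6430, and the vit-4 one lay 142 bp past the end with 31.9 at rank 14322. The replicate entries matched to the vit-4 end entry, by a summit within 210 bp of its own, ranked higher than it did in the pooled list. They stood at rank 1840 with a signal of 45.57 in replicate 1 and at rank 2838 with 31.28 in replicate 2. The replicate 1 summit was 320 bp past the end, so it may belong to another entry. Within 250 bp of the end, 3 of the 6 members (vit-2, vit-5 and vit-6) had an entry in both replicates, against 9.54% of all protein-coding genes, and vit-4 missed that distance in replicate 1 alone. Replicate 2 had no entry within 250 bp of the end of vit-1 or vit-3.

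The neighbours give these entries their setting. The gap between vit-4 and vit-3, which lie in tandem on the minus strand, is 3389 bp and holds the vit-4 start entry and the vit-3 end entry. Just outside the upstream edge of the vit-3 window, by 938 bp, lay an optimal entry at rank 898 with a signal of 109.6, whose nearest start was that of ckc-1, a choline kinase gene, 119 bp away, and the gene next to vit-3 on that side, T27A10.5, holds it in its own window. The other gene beside vit-4, rgs-7, had its highest pooled entry at rank 6378. Beside vit-2, acn-1 stood at rank 8253. Beside vit-5, unc-78 shared the vit-5 end entry and C04F6.9 stood at rank 28062. The vit-6 start entry also fell in the window of the divergent gene K07H8.7, 1268 bp upstream of it, and the vit-6 end entry in that of K07H8.8. On the far side of vit-1, set-12 had no pooled entry.

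The promoters were searched on both strands, from 250 bp upstream to 50 bp downstream of the first start. The element VPE1 (TGTCAAT) was present in 6 of 6 vitellogenin promoters and in 5.77% of all protein-coding promoters. The element VPE2 (CTGATAA), which overlaps the GATA core, was present in 5 of 6, all but vit-3, and in 8.15% of all. The GATA core TGATAA itself was present in 6 of 6 and in 30.2% of all. The DAF-16 associated element TGATAAG, which also overlaps the core and to which the zinc-finger factor PQM-1 binds, was present in vit-1, vit-2, vit-4 and vit-6, and in 9.19% of all. Of the DAF-16 binding element, the form TGTTTAC was in none of the 6 and in 4.77% of all, and the form TATTTAC was in vit-3 alone and in 6.74% of all. VPE1 and VPE2 were first described in vitellogenin promoters, so their presence there is no finding of these data, and no match says only that these letters are not in this window.

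Their positions can be read from the printed sequences. The VPE1 nearest the start began 57 bp upstream in vit-2, 50 bp in vit-3, 59 bp in vit-4 and 48 bp in vit-5, and farther out, at 115 bp, in vit-1 and at 163 bp, on the other strand, in vit-6. The GATA core nearest the start ended 87 bp upstream in vit-1, 103 bp in vit-2, 83 bp in vit-3, 132 bp in vit-4, 121 bp in vit-5 and 137 bp in vit-6. The summits of vit-2, vit-3 and vit-4 lay upstream of the start. The middle of the nearest GATA core was at −20, 15 and −5 bp from them (negative is upstream). The summit of vit-5 lay between VPE1 and the start, with the middle of that VPE1 at −11 bp from it. Those of vit-1 and vit-6 lay downstream of the start, apart from these elements.

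**Figure D4:**
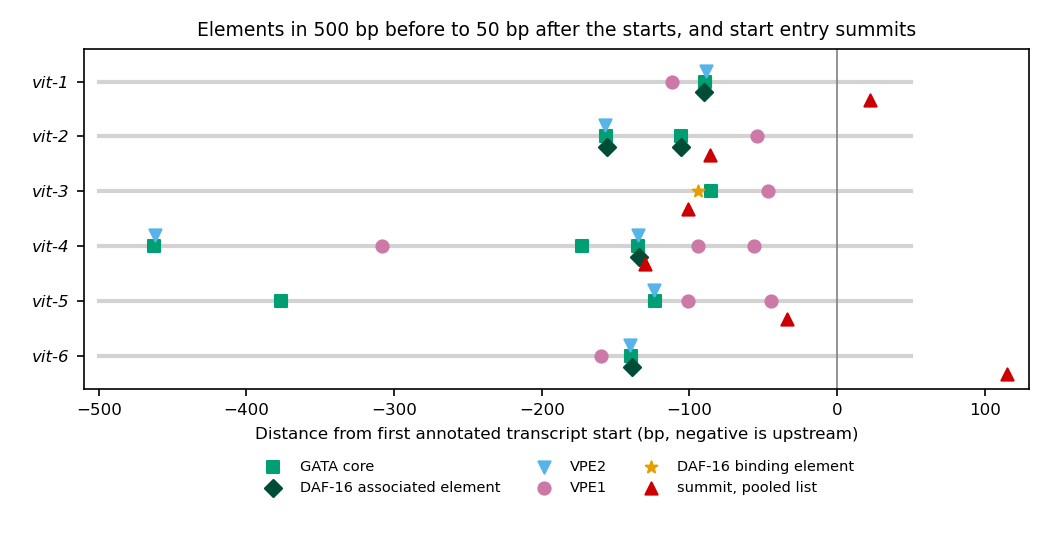
Positions of the elements searched, from 500 bp upstream to 50 bp downstream of the first start of each vitellogenin gene (grey bars), with the pooled summit of the start entry as a red triangle below each line (bp, negative is upstream). Each promoter holds at least 1 GATA core and 1 VPE1 within 250 bp of the start, and the summits of vit-1 and vit-6 lie at +22 and +115, downstream of every element drawn.

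Within 50 bp of the pooled summits the elements were fewer. The summits examined were those of 8 entries: the highest start entry of each member, a lower one of vit-5 at +168, and the distal entry of vit-1. Of these, 3 are in the optimal set, so the shares are given over both the 1464 nuclear optimal summits and the 29975 nuclear pooled summits. TGATAA lay near the summits of vit-2, vit-3, vit-4 and the vit-1 distal entry, and near 19.7% of the optimal and 11.5% of the pooled summits. TGTCAAT lay near the summits of vit-2, vit-4 and vit-5, and near 3.07% of the optimal and 1.87% of the pooled summits. TGATAAG lay near those of vit-2 and vit-4, against 8.81% of the optimal and 2.97% of the pooled. CTGATAA lay near those of vit-4 and the vit-1 distal entry, against 8.33% of the optimal and 3.08% of the pooled. TGTTTAC was near none of them, against 4.17% of the optimal and 1.31% of the pooled. TATTTAC was near that of vit-3 alone, 7 bp from the summit, against 1.23% of the optimal and 2.3% of the pooled. At vit-4 the middle of the TGATAAG was 4 bp from the summit, the closest match of any element to a member's summit. Neither the start entry of vit-1, nor that of vit-6, nor the lower one of vit-5 had any of the 6 elements within 50 bp of its summit.

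The genes whose highest entries ranked most like those of the members were sought among 10767 protein-coding genes with an entry in the window in all 3 lists, by the sum of absolute log2 rank differences over the pooled, replicate 1 and replicate 2 lists. For vit-1, spp-14 had a sum of 0 because it shares the entries, followed by T13B5.9 at 0.0821 (ranks 657, 1025 and 518) and, tied at 0.0838, pas-5 and rla-0 (ranks 660, 1062 and 485), which encode a proteasome subunit and a ribosomal stalk protein. For vit-2 they were epc-1 at 0.14 (ranks 618, 1023 and 377) and, tied at 0.255, T06D8.2 and plpr-1 (ranks 589, 942 and 420). For vit-6 they were T12D8.5 at 0.206 (ranks 1352, 3003 and 539), K07H8.7 at 0.252 (ranks 1321, 3361 and 509) and F48C1.3 at 0.347 (ranks 1409, 2724 and 586). K07H8.7 shares the vit-6 start entry in the pooled list. The vit-6 ranks matched were 1321, 2822 and 509, that of replicate 1 being the entry at +3886 and not the start entry.

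A list of 26 genes that act with the vitellogenins, by role, was read in the same window. Of these, 24 had a pooled entry, against 68.9% of all protein-coding genes, and 8 had an optimal entry, against 8.24%. The window runs to the gene end, so longer genes have larger windows, and these shares were not matched for gene length. Of the 7 transcriptional regulators of vitellogenin genes, 4 had an optimal entry, against the same 8.24%. Without replicate 1 the count was 2, elt-2 and ceh-60, since pqm-1 and lin-29 then fell outside the 1489 highest entries. The highest was at elt-2, the intestinal GATA factor, with a signal of 173.2 at rank 313, ranks of 508 and 193 in the replicates and a summit 477 bp upstream of its start. The homeodomain gene ceh-60 stood at rank 695 with 122.8 (ranks 674 and 690, 696 bp upstream), pqm-1 at rank 1150 with 97.55 (ranks 672 and 1511, 1496 bp downstream of its nearest start), and the zinc-finger gene lin-29 at rank 1268 with 92.66 (ranks 966 and 2444), nearest to the start of hmg-12. The Meis-type homeodomain gene unc-62 had no optimal entry, its highest being at rank 5886 with a signal of 45.81, 43 bp downstream of its start.

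In the signalling group, 3 of 10 genes had an optimal entry, against 8.24% of all protein-coding genes. That of daf-5, which encodes the Sno/Ski factor of the TGF-beta dauer pathway, stood at rank 311 with a signal of 173.7 (ranks 532 and 174), 2775 bp upstream. That of daf-14, a Smad gene of the same pathway, stood at rank 766 with 117.2 (ranks 664 and 1233), 1164 bp upstream. That of rict-1, which encodes the Rictor subunit of the TORC2 kinase complex, stood at rank 1146 with 97.77 (ranks 854 and 1338), 563 bp upstream of rict-1 but 110 bp upstream of gfm-1. For yolk particle assembly, dsc-4, which encodes the large subunit of the microsomal triglyceride transfer protein, had the highest entry of the list at rank 164 with 208.8 (ranks 224 and 153), 2125 bp upstream and nearer to the start of grl-26.

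Of the 8 uptake genes, 7 had a pooled entry, against 68.9% of all protein-coding genes. None had an optimal entry, against 8.24% of all protein-coding genes. The count was 1 by overlap of the entry with the window and without replicate 1 (rab-11.1 in both), and 1 without replicate 2 (rab-7), genes that encode small GTPases of endosomal traffic. The yolk receptor gene rme-2, which is expressed in the germ line, had its highest pooled entry at rank 13893 with a signal of 32.34 (ranks 15858 and 11291), 2625 bp downstream of its start. The pooled median signal was 31.23, so that the rme-2 entry lay near the middle of that list. The pooled start entries of all 6 vitellogenin genes lay above that entry. This did not hold in replicate 1, where the vit-1 start entry at rank 21245 lay below the rme-2 entry at rank 15858. None of the 8 optimal entries of the pathway list lay within 250 bp of a start of its gene. Over all protein-coding genes, 1.9% had an optimal entry at that distance and 8.24% had one in the window.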

How the data were processed

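Whole animals were immunoprecipitated with an antibody against GFP, in 2 biological replicates, per the labels. The authors deposited 4 peak lists on ce11. The signal of each entry and the −log10 q-value beside it are the authors' deposited values, and entries were ranked by signal. Which aligner, caller and threshold were used is not given in the sources used here. Lists on ce10 were not used here.

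Genes came from Ensembl release 115 and sequence from the RefSeq copy of the same assembly (WBcel235, which is ce11), whose chromosome lengths were checked against the peaks. An entry belonged to a gene by its summit. Words of 36 and 50 bases were counted on both strands. Global alignments of DNA scored 2 for a match, −3 for a mismatch, −5 and −2 for opening and extending a gap, and −2 for end gaps. Python 3.11.15, numpy 2.4.6, pandas 2.3.3, Biopython 1.88 and matplotlib 3.10.9 were used. Entry assignment and the element search were tested on simulated data.

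All values describe 1 group, and no test was made. Alternatives were other windows, overlap in place of the summit, the 744 highest optimal entries, nuclear entries only, a longer promoter, and 1 replicate at a time, with the 1489 highest entries of that replicate standing in for the optimal set. Named genes were the members, the protein-coding gene on either side, pathway genes with an optimal entry together with rme-2, elt-2 and unc-62, and the 3 genes ranked most like each member with an optimal entry. Other genes are named where they lie nearest to such an entry. The members and lists were chosen with earlier results of these data known.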

Additional observations from a re-analysis of the deposited data

How the results depend on the processing

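The number of vitellogenin genes with an optimal entry was 3 in the main setting and changed under most of the alternatives run. It was 2 with a window of 2000 bp, with 1000 bp upstream to 500 bp downstream of a start and within 250 bp of a start. The genes were vit-2 and vit-6 in each, and the last window was chosen after the data were seen. The count was also 2 in the 744 highest entries of the optimal set (vit-1 and vit-2), and 3 by overlap. Leaving out each replicate gave 2 to 4: without replicate 1 vit-3 joined, and without replicate 2 vit-6 was lost. The pooled rank of the highest vit-1 entry moved to 1787 with 2000 bp upstream and to 7294 with the promoter window or within 250 bp of a start, by construction, since the distal entry then lies outside. Without one replicate each, the ranks ran from 494 to 1030 for vit-1, 385 to 965 for vit-2, 885 to 9524 for vit-3, 2613 to 4210 for vit-4, 1662 to 2678 for vit-5 and 509 to 2822 for vit-6. The values without replicate 2 for vit-3 and vit-6 belong to other entries of the gene than the start entry. Ranks among nuclear entries only were 629, 604, 2377, 2627, 2528 and 1296 for vit-1 to vit-6. The count of yolk pathway genes with an optimal entry was 8. It moved to 3 with 1000 bp upstream to 500 bp downstream, to 4 in those 744 entries and to 0 within 250 bp of a start. It ran from 7 to 9 in the other alternatives. The share of all protein-coding genes, 8.24% in the main window, changed as well. It was 6.92% with 2000 bp, 4.2% with 1000 bp upstream to 500 bp downstream and 1.9% within 250 bp of a start. It was 4.22% in those 744 entries, 9.17% by overlap, 8.3% without replicate 1 and 8.27% without replicate 2. Promoters extended to 500 bp gave the same counts of vitellogenin genes for all 6 elements, with shares of all promoters of 5.77% then 10.6% for VPE1 and 8.15% then 13% for VPE2. No paired analysis was possible because there is 1 group and no test. Depth is unknown, so an absent entry gives no limit on the signal there, and without an input or untagged library the share of signal unrelated to the tag was not measured.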
